A study of Saccharomyces cerevisiae with 4 samples.

Results

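The genes described here build and run the machinery that pulls chromosomes apart in budding yeast: the kinetochore, the mitotic spindle and the switch into anaphase. They are 50 named genes, taken by name from a table of 5897 genes, and all 50 were found there. The RNA came from the industrial Saccharomyces cerevisiae strain CY, grown with shaking for 10 h in medium of peptone, yeast extract and glucose. Of the 4 libraries, 2 are non-stress (30 °C, 2% glucose) and 2 are stress (36 °C, 10% glucose), so that temperature and sugar changed together and their effects cannot be told apart. Both groups are the same strain, for which the labels give no ploidy and no introduced allele. No label tells whether the replicates were grown as separate cultures, and the p-values below therefore cover the spread between libraries, which may be technical. Levels are FPKM, fragments per length of gene and per mapped total, so they can be compared between genes.

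A kinetochore is assembled on each centromere around a nucleosome that holds the histone variant Cse4. The inner layer recruits the Mtw1 and Ndc80 complexes, which bind microtubules together with the ring-forming Dam1 complex. The spindle checkpoint holds the anaphase-promoting complex in check until every kinetochore is attached. The complex, a ubiquitin ligase, then marks securin for destruction, which frees separase to cut the cohesin rings that hold sister chromatids together. Many of these genes are known to be transcribed in waves during the cell cycle. In bulk RNA, fewer cells in a given phase and less RNA per cell cannot be told apart.

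The members were transcripts of modest abundance and split in both directions. Their median level was 25.1 and 24.9 FPKM in the non-stress libraries and 20.9 and 23.1 in the stress libraries, against 53.4 to 56.1 and 47.5 to 48.3 over all genes tested. By limma with a Benjamini-Hochberg adjusted p under 0.05, 14 of 50 members were higher under stress, 26 were lower and 10 did not pass. Over all 5784 genes tested, 87.7% passed, 39.8% as higher and 47.9% as lower, so the share of members called, 80%, lay below that of the table. The groups did not overlap for 46 of 50 members, against 93.8% of all genes tested. The members' median log2 fold change was -0.26 and that of all genes tested -0.14, and their range, from -1.81 for TUB3 to 1.14 for DAD4, lay well inside that of the table (-6.59 to 8.41). A change of at least 2-fold was called for 2 members as higher and 13 as lower, that is 15 of 50, against 46% of all genes (19% higher and 26.9% lower).

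The balance of rises and falls among the members depended on how libraries were scaled. The median of all genes was -0.14 on the values as deposited, -0.22 after rescaling to equal FPKM sums, 0.05 after median centring and 0.09 after quantile normalization, and the members' calls moved with it. With quantile normalization 23 members were higher and 21 lower, against 46.5% and 41.2% of all genes tested. With median centring 18 were higher and 21 lower, against 46% and 42.3%, and with equal sums 11 and 29, against 37% and 50.7%. Under all 4 scalings 11 members were higher and 19 lower each time, against 36.5% and 38.7% of all genes, and 1, DAD3, was never called. The other 19 changed their call. Below, rises and falls belong to the values as deposited, and a member whose call changed with the scaling is marked as such.

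**Figure D1:**
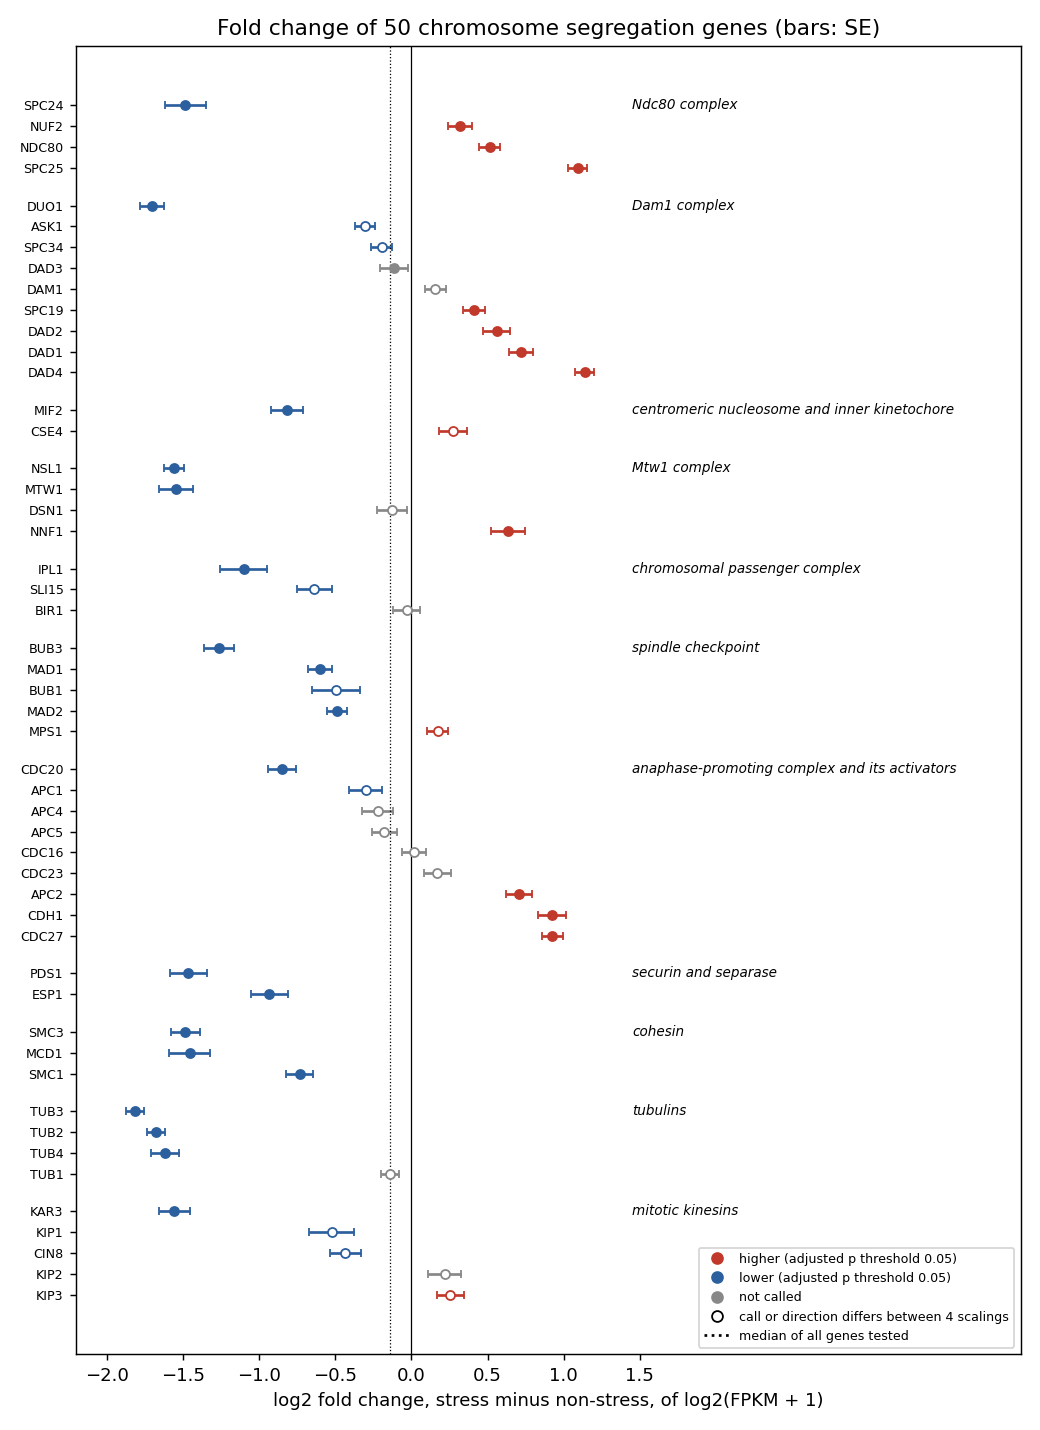
The log2 fold change of log2(FPKM + 1) of each of the 50 members, grouped by role, with its standard error from limma (2 libraries a group). Open points changed their call between 4 scalings, and DAD3, never called, is filled although its sign changed. Red points were higher, blue points lower and grey points not called, and the dotted line is the median of all genes tested, -0.14. All 5 cohesin, securin and separase genes lie to the left of that line, while the Ndc80, Dam1 and anaphase-promoting complex genes lie on both sides.

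The 5 members of cohesin, securin and separase, the parts cut or released at anaphase, were all lower under each of the 4 scalings. Over all genes tested, 38.7% were lower under all 4. PDS1, securin, on chromosome IV at 680496 to 681617, was at 17.55 and 21.22 FPKM in the non-stress libraries and at 6.04 and 6.69 in the stress libraries. Its log2 fold change was -1.46 ± 0.12 (SE, with an adjusted p of 2.19e-06 by limma), a mean level 3.05-fold lower. ESP1, separase, on chromosome VII at 682566 to 687458, was at 10.64 and 9.74 FPKM and then at 4.67 and 5.06. Both genes had groups far apart, and PDS1 stayed above ESP1 in every library. The ratio of ESP1 to PDS1 was 0.606 and 0.459 in non-stress and 0.773 and 0.756 in stress libraries.

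Among the cohesin subunits, MCD1, the kleisin that separase cuts, was at 13.97 and 17.51 FPKM in non-stress and at 4.70 and 5.46 in stress libraries (log2 fold change -1.46 ± 0.14, SE, with an adjusted p of 5.87e-06 by limma). SMC3, one of the long coiled-coil ATPases of the ring, went from 24.02 and 22.36 to 7.69 and 7.60 FPKM. Its partner SMC1 fell less, from 18.52 and 17.99 to 10.36 and 10.79 FPKM. The order of these partners turned over: SMC1 stood at 0.771 and 0.805 of the SMC3 level in non-stress libraries and at 1.35 and 1.42 of it in stress libraries. A ratio within a library does not change when all its values are multiplied by a factor, as in equal sums, but quantile normalization can change it.

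The other genes that handle sister chromatids went the same way. Of 16 further genes, 15 were lower and 0 higher (93.8% lower against 47.9% of all genes tested), with a median log2 fold change of -1.02. They are genes of cohesin, its loading and control, condensin, the Smc5/6 complex and topoisomerase II. The condensin subunit YCS4 went from 22.04 and 21.67 to 7.59 and 7.42 FPKM, SMC2 from 27.51 and 24.52 to 9.56 and 9.71, and YCG1 from 16.59 and 14.37 to 5.91 and 5.66. The exception was SCC4, a subunit of the cohesin loader named after its values were seen, at 20.92, 21.61, 21.17 and 22.04 FPKM across the 4 libraries. Under quantile normalization 10 of the 16 were lower and SCC4 was higher. IRR1, a cohesin subunit outside the members, fell in the values as deposited (-0.62) but was not called after quantile normalization (-0.06).

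Several members that fell carry the letters ACGCGT, the MluI cell cycle box that the factor MBF binds in genes transcribed late in G1, in the 250 bases before or 50 bases after their start codon. The 30 bases around each match, from the R64 genome on the strand of the gene, are shown with the box in capitals, for the 8 members that have it.
SMC3: ggaaaagacgcgACGCGTtaggaaatgatt
SMC1: aaagtatcaataACGCGTaaagtgaataga
PDS1: caaagatctcaaACGCGTcaaaaaactcgt
MTW1: aatttttatagtACGCGTaaacaaaaaagg
MIF2: aaaaataatataACGCGTtagaaatggtga
IPL1: aagtttaacttcACGCGTttttcctgtaaa
TUB4: ccgggtaacagaACGCGTtaatattatctt
APC4: gttctgttgaacACGCGTaaacgactcaag
The stretches lie at chrX:302949-302978 (SMC3, minus strand), chrVI:119295-119324 (SMC1, plus), chrIV:681784-681813 (PDS1, minus) and chrI:79600-79629 (MTW1, plus). Those of MIF2, IPL1, TUB4 and APC4 lie at chrXI:273287-273316 (plus), chrXVI:157744-157773 (minus), chrXII:566393-566422 (minus) and chrIV:685847-685876 (plus). Between 89 and 178 bases separate the box from the start codon, except in APC4, where it is 17. In MTW1 the end of the box overlaps the forkhead letters named below.

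Of the 8 members with the box, 7 fell and 0 rose, with log2 fold changes from -1.62 to -0.22. The other, APC4 (-0.22), did not pass, and its call changed with the scaling. Of the 42 members without it, 14 rose and 19 fell. The box was in the window of 8 of 50 members (16%) and of 183 of 5814 genes with a window (3.15%). Across the table, 123 of 182 tested genes with the box were lower (67.6%), against 47.6% of the 5715 tested genes with a window. The motifs were chosen after the values were seen, these shares are descriptions, and a match shows letters, not a bound site. MCD1 has no match in this window.

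A further 3 motifs were searched on both strands of the same windows. CGCGAAA, the SCB box of the related factor SBF, was in 10 of 50 members (20%) and in 3.61% of all windows, and 4 of the 10 rose while 5 fell. GTAAACAA, bound by forkhead factors active in G2 and M phase, was in 6 of 50 (12%) and in 3.03% of all windows, with 3 members higher and 3 lower. AGGGG, the stress response element of Msn2 and Msn4, was in 2 of 50 (4%) and in 21.7% of all windows. Those 2 members, BUB3 and MAD2, both fell. Over all genes tested, 39.8% rose and 47.9% fell. Calls of all genes with these 3 motifs were not counted, so the members' calls have no such background. The SCB match of DAD4 and the forkhead match of CSE4, both among the rises, lie after the start codon.

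Of 4 genes for tubulins, the building blocks of the spindle, 3 fell, against 47.9% of all genes tested. In the non-stress libraries TUB1, TUB2 and TUB3 had the highest levels of all members. TUB2, the only beta-tubulin gene of yeast, on chromosome VI at 56336 to 57709, was at 286.39 and 312.00 FPKM in non-stress and at 94.69 and 90.91 in stress libraries (log2 fold change -1.68 ± 0.059, SE, with an adjusted p of 4.54e-09 by limma). TUB4, the gamma-tubulin that nucleates microtubules at the spindle pole, went from 24.91 and 24.41 to 7.60 and 7.15 FPKM. The ratio of TUB2 to TUB4 was 11.5 and 12.8 in non-stress and 12.5 and 12.7 in stress libraries, and their log2 fold changes were -1.68 and -1.62 on the values as deposited but -1.77 and -1.10 after quantile normalization.

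The alpha-tubulin genes parted. TUB1, the main alpha-tubulin, was at 195.33 and 213.21 FPKM in non-stress and at 190.49 and 180.06 in stress libraries. Its log2 fold change was -0.14 ± 0.060 (SE, with an adjusted p of 0.0546 by limma). It passed as lower under quantile normalization (-0.29), equal sums (-0.23) and the replicate block. After median centring its sign turned (0.05) and it did not pass. Without non-stress replicate 1 its log2 fold change was -0.20. TUB3, the second alpha-tubulin, went from 184.45 and 187.68 to 53.97 and 50.46 FPKM, the largest fall among the members (log2 fold change -1.81 ± 0.057, SE, with an adjusted p of 2.19e-09 by limma). The genes stood nearly level in non-stress libraries, with TUB1 over TUB3 at 1.06 and 1.14, and apart in stress libraries, at 3.53 and 3.57. TUB1 thus made up 51.4% and 53.2% of alpha-tubulin FPKM in non-stress and 77.9% and 78.1% in stress libraries. Alpha-tubulin FPKM summed over the genes was 1.33 and 1.28 of the TUB2 level in non-stress and 2.58 and 2.54 of it in stress libraries.

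Because TUB1 and TUB3 are copies, the letters that separate their reads matter. Their coding sequences of 1344 and 1338 bases are 81.2% identical, the longest identical run is 32 bases, and no 50-base window of either occurs in another coding sequence. The first 90 coding bases of each are shown, joined across the intron, with the 14 differing bases in capitals.
TUB1: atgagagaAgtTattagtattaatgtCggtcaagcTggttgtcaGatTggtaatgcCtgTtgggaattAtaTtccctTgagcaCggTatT
TUB3: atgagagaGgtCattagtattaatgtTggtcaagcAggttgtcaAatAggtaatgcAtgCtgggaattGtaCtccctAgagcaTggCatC
Both lie on the minus strand of chromosome XIII, TUB1 at 97941 to 99400 and TUB3 at 22048 to 23683, and are the only members with 2 coding exons. Over TUB3, 120 bases are also annotated as YNCM0001W on the other strand, and no source used here says whether the libraries kept strand. No member shared a 50-base window with another coding sequence.

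**Figure D2:**
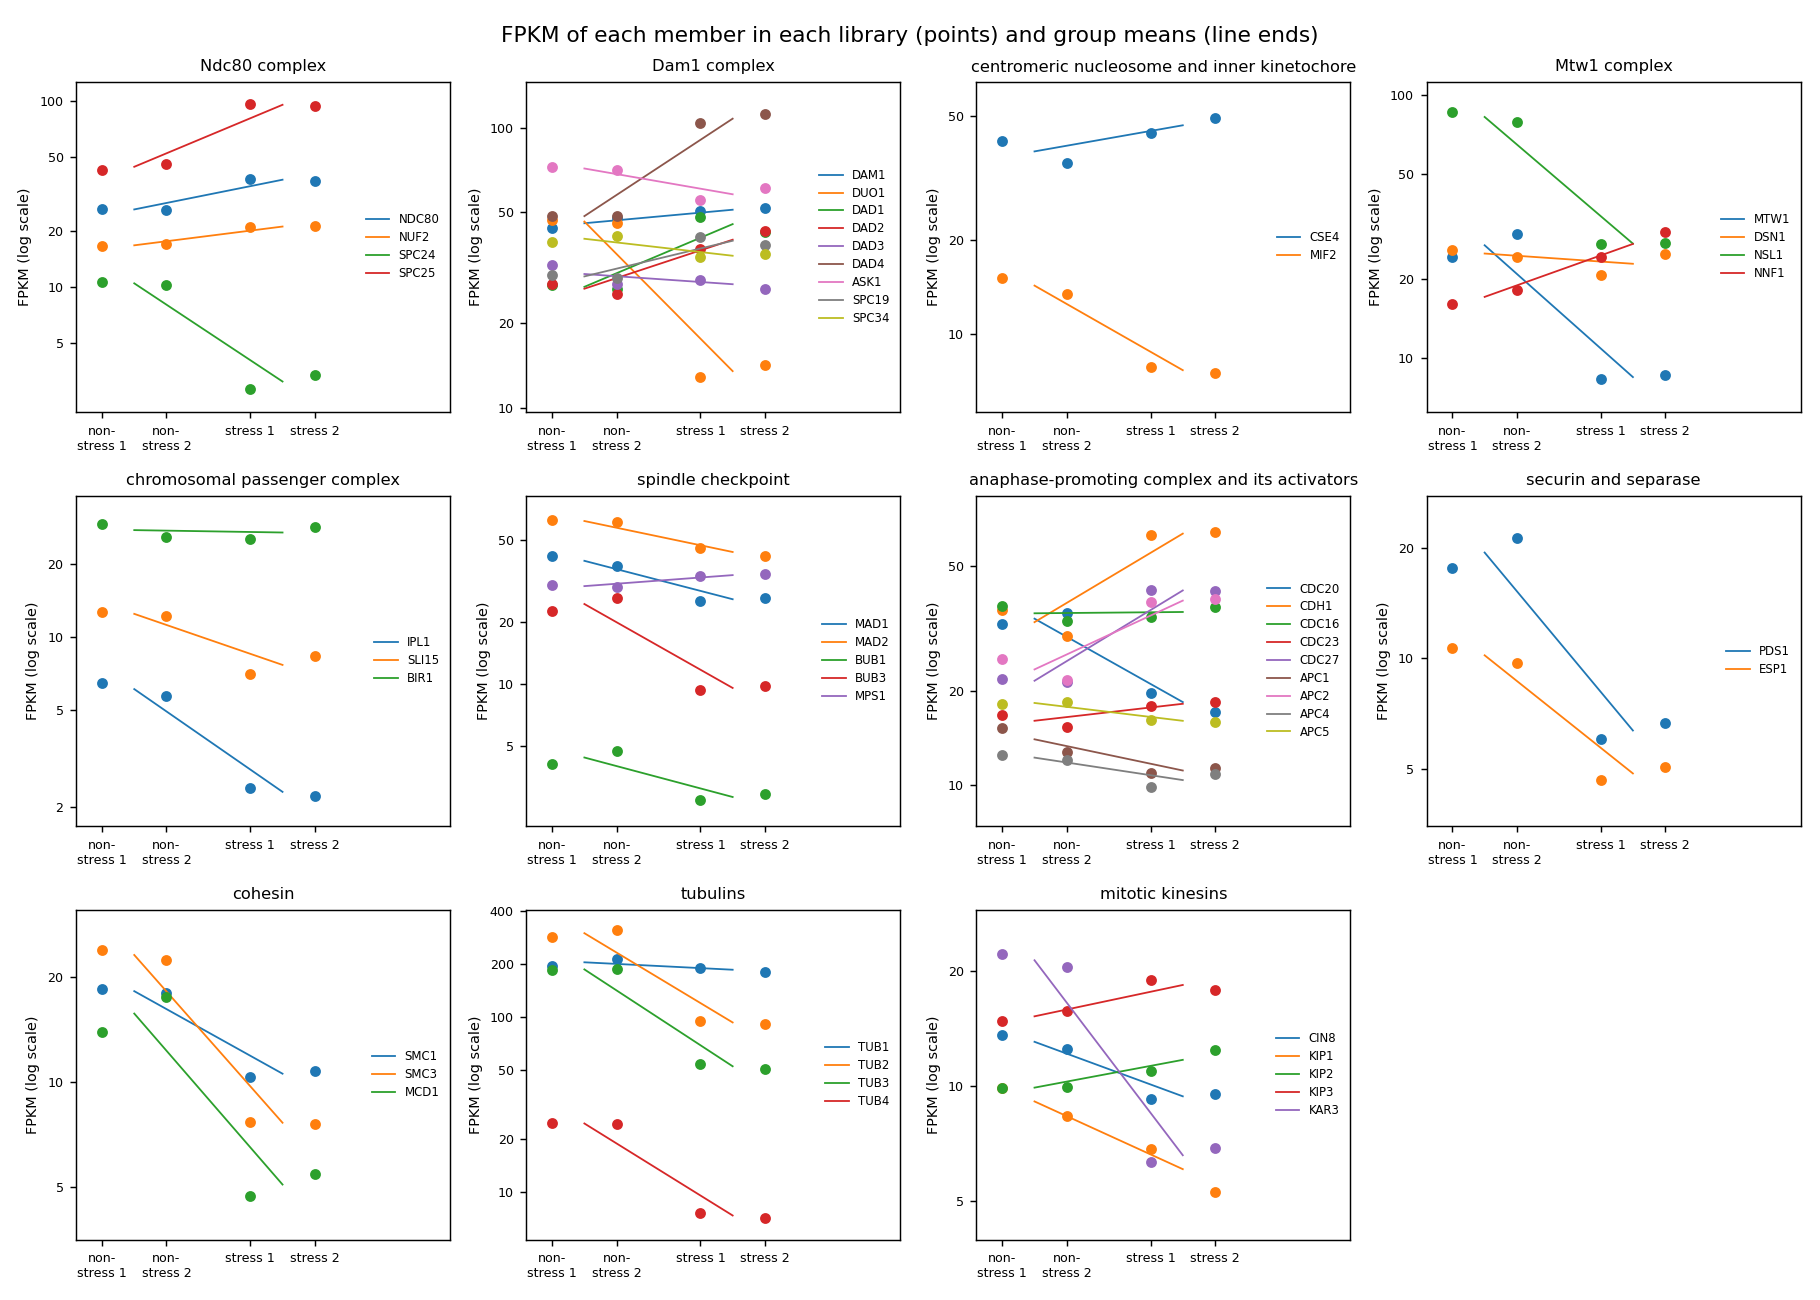
FPKM (log axis) of each member in each of the 4 libraries, one panel per role, with points for libraries and lines joining the group means. TUB3 and TUB2 fall while TUB1 stays between 180.06 and 213.21, and SPC24 falls while the other 3 Ndc80 subunits rise.

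The Ndc80 complex, a rod of 4 subunits that links the kinetochore to the microtubule, gave 3 rises and 1 fall. These were the same under all 4 scalings, against 36.5% and 38.7% of all genes tested. SPC25, part of the end that faces the centromere, was at 42.54 and 45.79 FPKM in non-stress and at 96.70 and 93.65 in stress libraries (log2 fold change 1.09 ± 0.063, SE, with an adjusted p of 1.65e-07 by limma). SPC24, its direct partner in that end, went from 10.66 and 10.19 to 2.82 and 3.36 FPKM (-1.48 ± 0.13, SE, with an adjusted p of 4.58e-06 by limma). Partners in one protein dimer thus moved apart, from an SPC25 to SPC24 ratio of 3.99 and 4.49 to one of 34.3 and 27.9. SPC24 in the stress libraries rests on few fragments, an estimated 31 and 37.

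The genes of the microtubule-binding end rose by less than SPC25. NDC80 went from 26.29 and 25.79 to 38.12 and 37.14 FPKM (log2 fold change 0.51 ± 0.069, SE) and NUF2 from 16.50 and 16.89 to 20.94 and 21.19 (0.32 ± 0.080). Their ratio was 1.59 and 1.53 in non-stress and 1.82 and 1.75 in stress libraries. The call of NUF2 was lost without stress replicate 2 (log2 fold change 0.31, limma adjusted p = 0.0553).

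Of the 9 Dam1 complex genes among the members, whose products form rings around microtubules, 4 rose and 3 fell. Over all genes tested, 39.8% rose and 47.9% fell. DAD4 was at 48.23 and 48.38 FPKM in non-stress and at 103.63 and 111.60 in stress libraries, the largest rise among the members (log2 fold change 1.14 ± 0.061, SE, with an adjusted p of 9.66e-08 by limma). It is also the shortest member, with 219 coding bases, and FPKM of so short a gene depends on the length correction. DUO1 went the other way, from 46.90 and 45.48 to 12.86 and 14.16 FPKM (-1.70 ± 0.080, SE, with an adjusted p of 3.59e-08 by limma). DAD4 and DUO1 were level in non-stress libraries, at a ratio of 1.03 and 1.06, and stood at 8.06 and 7.88 in stress libraries.

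The smaller changes of this complex kept their direction in part. DAD1 rose from 27.48 and 26.54 to 47.93 and 42.53 FPKM, and DAD2 (0.56) and SPC19 (0.41) rose on the log2 scale, all under each of the 4 scalings. ASK1 (-0.30) and SPC34 (-0.20) fell, but neither passed after median centring, and SPC34 was at 0.06 after quantile normalization. The call of SPC34 was also lost without non-stress replicate 2 or either stress replicate, at log2 fold changes from -0.21 to -0.16. DAD3 (-0.11, limma adjusted p = 0.266) and DAM1 (0.16, limma adjusted p = 0.0509) did not pass. Without non-stress replicate 2 both did, DAD3 at -0.23 and DAM1 at 0.22, and DAM1 was also higher after quantile normalization and median centring, with a minimum FPKM of 5 (limma adjusted p = 0.0495) and without genes of over 50% shared windows (0.0499). Among the 9 members the highest level was 2.63 and 2.78 times the lowest in non-stress and 8.06 and 7.88 times in stress libraries. HSK3, a further gene of the complex outside the members, rose from 65.49 and 68.97 to 115.36 and 126.27 FPKM.

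In the centromeric layer, CSE4, the histone H3 variant of the centromere, was at 41.47 and 35.32 FPKM in non-stress and at 43.96 and 49.11 in stress libraries. Its log2 fold change of 0.27 ± 0.091 (SE, with an adjusted p of 0.019 by limma) did not pass after equal sums or with no filter, nor without non-stress replicate 2 (0.16, limma adjusted p = 0.135) or stress replicate 2 (0.20, limma adjusted p = 0.164). MIF2, the yeast CENP-C, which binds that nucleosome, fell from 15.14 and 13.45 to 7.83 and 7.51 FPKM (-0.82 ± 0.11, SE). CSE4 stood at 2.74 and 2.63 times MIF2 in non-stress and at 5.61 and 6.54 times in stress libraries.

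The Mtw1 complex, the bridge from the centromere to Ndc80, had 2 falls and 1 rise among 4 genes. Over all genes tested, 47.9% fell and 39.8% rose. NSL1 went from 85.78 and 79.02 to 27.19 and 27.32 FPKM (log2 fold change -1.56 ± 0.067, SE, with an adjusted p of 1.89e-08 by limma) and MTW1 from 24.19 and 29.54 to 8.34 and 8.65 (-1.55 ± 0.11). NNF1 rose from 16.11 and 18.12 to 24.30 and 30.06 FPKM. These 3 calls held under the 4 scalings. DSN1, at 25.79, 24.20, 20.76 and 24.95 FPKM, had overlapping groups and did not pass (-0.13), though it was higher after quantile normalization (0.25). NSL1, the most abundant subunit in non-stress libraries at 5.32 and 4.36 times NNF1, was level with NNF1 in stress libraries, at 1.12 and 0.909 times.

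**Figure D3:**
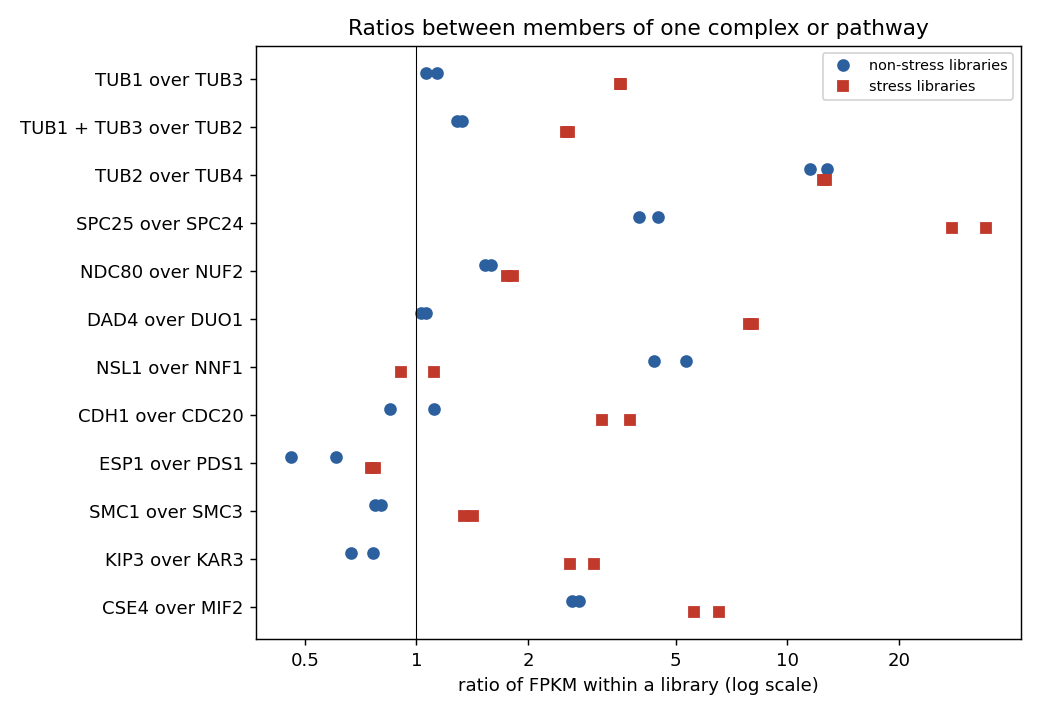
Ratio of FPKM between members of one complex or pathway within each library, on a log axis, with circles for the 2 non-stress and squares for the 2 stress libraries. The ratio of SPC25 to SPC24 goes from about 4 to about 31, while that of TUB2 to TUB4 overlaps between the groups.

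The chromosomal passenger complex corrects wrong attachments. Its Aurora kinase, IPL1, was at 6.45 and 5.73 FPKM in non-stress and at 2.38 and 2.22 in stress libraries (log2 fold change -1.10 ± 0.15, SE, with an adjusted p of 9.91e-05 by limma), from an estimated 46 and 43 fragments in the latter. SLI15, the scaffold that activates the kinase, went from 12.69 and 12.16 to 7.01 and 8.31 FPKM, a fall (-0.64) that did not pass after quantile normalization. BIR1, the survivin-like subunit, did not pass at 29.16, 25.80, 25.36 and 28.37 FPKM (-0.03, limma adjusted p = 0.753), and it was higher after quantile normalization (0.30).

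Of 5 spindle checkpoint genes 4 fell, against 47.9% of all genes tested. BUB3, a checkpoint adaptor, went from 22.70 and 26.23 to 9.36 and 9.79 FPKM (log2 fold change -1.26 ± 0.10, SE, with an adjusted p of 1.69e-06 by limma). MAD1, which holds Mad2 at unattached kinetochores, went from 42.03 and 37.27 to 25.31 and 26.31 FPKM, and MAD2, the part that binds Cdc20, from 62.83 and 60.91 to 45.54 and 41.99. These 3 falls held under the 4 scalings. The kinase gene BUB1, among the least abundant members, went from 4.09 and 4.71 to 2.73 and 2.93 FPKM, and its fall (-0.49) did not pass after quantile normalization or median centring. The kinase MPS1, at 30.24 and 29.53 and then 33.52 and 34.07 FPKM, rose slightly (0.17 ± 0.068, SE, with an adjusted p of 0.0392 by limma). That call was lost after equal sums (0.09), with the replicate block (adjusted p = 0.077), without non-stress replicate 2 (0.16), without stress replicate 1 (0.18) and without stress replicate 2 (0.16).

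The activators of the anaphase-promoting complex moved in opposite directions. CDC20, which triggers anaphase and is the target of the checkpoint, on chromosome VII at 289809 to 291641, fell from 32.61 and 35.26 to 19.74 and 17.07 FPKM (log2 fold change -0.85 ± 0.091, SE, with an adjusted p of 1.62e-05 by limma). CDH1, which takes over late in mitosis and in G1, on the same chromosome at 492474 to 494174, rose from 36.28 and 29.88 to 62.54 and 64.12 FPKM (0.92 ± 0.090, SE, with an adjusted p of 8.32e-06 by limma). In non-stress libraries the ratio of CDH1 to CDC20 was 1.11 and 0.847, and in stress libraries 3.17 and 3.76. Both calls held under the 4 scalings.

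Of the 7 subunits of the ligase among the members, 2 rose, 1 fell and 4 did not pass. Over all genes tested, 39.8% rose and 47.9% fell. CDC27, one of the repeat subunits that bind activators, went from 21.75 and 21.29 to 41.83 and 41.65 FPKM (log2 fold change 0.92 ± 0.069, SE), and APC2, the cullin, from 25.20 and 21.57 to 38.25 and 39.23 (0.71 ± 0.087). The scaffold APC1 (-0.30) passed as lower but was higher after quantile normalization (0.24), and its call was lost after median centring (limma adjusted p = 0.262). It was also lost without non-stress replicate 1 or either stress replicate, with adjusted p from 0.078 to 0.121. CDC16 (0.01), CDC23 (0.17), APC4 (-0.22) and APC5 (-0.18) did not pass, and after quantile normalization all 4 were higher. After median centring CDC16 and CDC23 were higher, after equal sums APC4 and APC5 were lower, and APC5 was also lower with no filter (limma adjusted p = 0.0495). CDC23 passed as higher without non-stress replicate 1 (0.23).

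Of 5 spindle motor genes 3 fell and 1 rose, against 47.9% and 39.8% of all genes tested. KAR3, a minus-end-directed motor, went from 22.22 and 20.47 to 6.32 and 6.88 FPKM (log2 fold change -1.56 ± 0.10, SE, with an adjusted p of 4.09e-07 by limma), the only motor whose call held under the 4 scalings. CIN8 and KIP1, the kinesin-5 motors that push spindle poles apart, went from 13.65 and 12.48 to 9.26 and 9.56 FPKM (-0.43) and from 9.90 and 8.35 to 6.85 and 5.29 (-0.52). Neither passed after quantile normalization, and KIP1 was lost after median centring and without non-stress replicate 1 (-0.41) or stress replicate 2 (-0.36).

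KIP3, which shortens microtubules from their plus ends, went from 14.78 and 15.68 to 18.99 and 17.80 FPKM (0.26 ± 0.088, SE, with an adjusted p of 0.0215 by limma). Its rise was lost after equal sums (0.17) and without non-stress replicate 1 or either stress replicate, with log2 fold changes from 0.21 to 0.30. KIP2, which promotes microtubule growth, did not pass (0.22, limma adjusted p = 0.0803), though it was higher after quantile normalization and median centring. The ratio of KIP3 to KAR3 was 0.665 and 0.766 in non-stress and 3.00 and 2.59 in stress libraries.

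Other genes of these structures are set beside the 39.8% of all genes tested that were higher, the 47.9% that were lower and their median log2 fold change of -0.14 (0.09 after quantile normalization). Of 23 further kinetochore subunits, 10 rose and 9 fell (39.1% lower; median -0.06), with 14 and 7 and a median of 0.50 after quantile normalization. Among them were WIP1 (-1.31) and MCM16 (-1.30) of the inner kinetochore and SKP1 (1.22), shared with ubiquitin ligases. Of 35 spindle pole and microtubule-associated genes, 7 rose and 22 fell (62.9% lower; median -0.39), with 16 and 11 and a median of 0.04 after quantile normalization. NUM1, the cortical anchor of dynein, rose from 26.59 and 23.59 to 100.61 and 101.06 FPKM, while ASE1 (-1.55), which bundles microtubules of the spindle midzone, fell. ARP1, of dynactin, fell from 22.70 and 20.83 to 10.60 and 10.19 FPKM. Of 8 further genes of the anaphase-promoting complex, 3 rose and 4 fell (50% lower; median -0.09). APC9, a subunit, rose from 30.69 and 33.39 to 90.87 and 93.39 FPKM, MND2 rose by 0.39, and ACM1, an inhibitor of the Cdh1 form, fell by 0.53 but not under every scaling. None of the 4 falls remained after quantile normalization.

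Of 15 mitotic exit and checkpoint genes, 5 rose and 8 fell (53.3% lower against 47.9% of all genes; median log2 fold change -0.40), with 6 and 7 and a median of -0.02 after quantile normalization. SPO12, a promoter of mitotic exit, rose from 30.44 and 35.93 to 119.25 and 126.87 FPKM, and KIN4 (-1.77), a kinase that restrains exit, and NET1 (-1.66), the nucleolar anchor of Cdc14, fell.

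Lists of genes tied to cell cycle phases were read beside the members. Of 13 genes expressed from G1 to S phase, 10 fell and 0 rose (76.9% lower against 47.9% of all genes tested; median log2 fold change -0.77), with 7 and 2 and a median of -0.31 after quantile normalization. The replication clamp gene POL30 went from 106.84 and 128.64 to 13.11 and 11.82 FPKM, the ribonucleotide reductase gene RNR1 from 32.10 and 34.39 to 3.84 and 3.87, and the thymidylate synthase gene CDC21 from 62.49 and 64.11 to 11.74 and 11.47. The 3 genes of that list not called were CLN1 (-0.05), CLB5 (0.02) and SWI4 (0.04), and CLB5 and SWI4 were higher after quantile normalization. Of 15 genes listed for G2 and M phase, 4 rose and 6 fell (40% lower, median -0.14, as over all genes). The list includes FKH1 (-1.68), FKH2 (-0.66), NDD1 (-0.77) and MCM1 (-0.43), regulators of genes of that phase, all among the falls. The other falls were CLB1 (-0.58) and ALK1 (-0.68), while SWI5 (0.50), CHS2 (0.78), HST3 (0.75) and KIN3 (1.02) rose. After quantile normalization 9 rose and 4 fell, with a median of 0.37 against 0.09 over all genes. The 4 falls left there were those regulators, FKH1, FKH2, NDD1 and MCM1. FKH1 is a forkhead factor, KIN3 a mitotic kinase and CHS2 the septum chitin synthase. Whether a different mix of cell cycle phases accounts for the members' values was not tested.

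**Figure D4:**
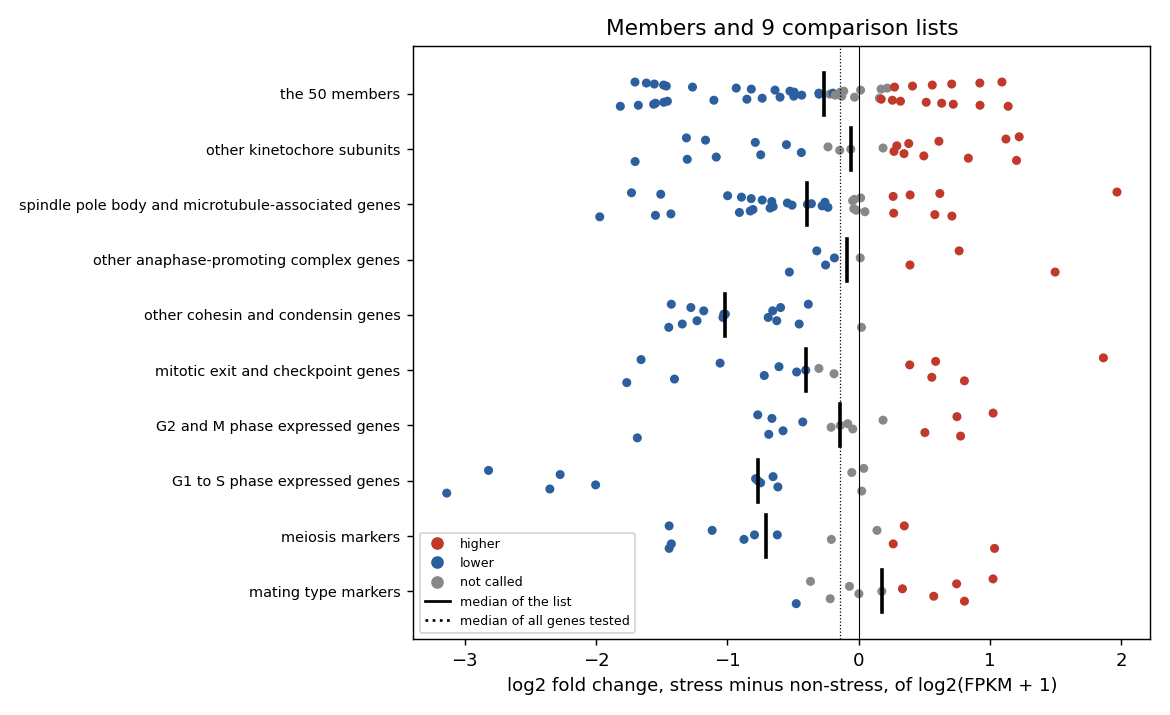
The log2 fold change of log2(FPKM + 1) of each tested gene among the 50 members and in 9 comparison lists, coloured by call, with the median of each list as a black bar and that of all genes tested as a dotted line. The medians of the cohesin and condensin list (-1.02) and of the G1 to S phase list (-0.77) lie left of the dotted line, and that of the G2 and M phase list lies on it in the values as deposited.

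Markers of other cell states were read in both groups. Of 12 meiosis markers 3 rose and 7 fell (58.3% lower against 47.9% of all genes tested; median log2 fold change -0.71), none was at 0, and their summed level was 138 to 141 FPKM in non-stress and 128 to 130 in stress libraries. IME1, the inducer of meiosis, rose from 26.20 and 20.69 to 47.79 and 49.76 FPKM. NDT80 (-0.87), the switch into the meiotic divisions, fell, and DMC1 (0.26), a recombinase, rose in values as deposited but not under every scaling. The other falls were HOP1 (-1.44), MAM1 (-1.44), SPS1 (-1.43), SPO13 (-1.12), SPO11 (-0.79) and SPS4 (-0.62), and the other rise was ZIP1 (0.35). The calls of SPO11, SPS4 and ZIP1 did not hold under every scaling. Of 12 mating type markers 11 passed the filter, 5 rose and 1 fell (9.09% lower; median 0.18), and the summed level was 76.4 to 91.2 FPKM in non-stress and 89.4 to 95.4 in stress libraries. Among these STE6 (0.57) and STE4 (0.33) rose and MF(ALPHA)2 (-0.48) fell, the last 2 not under every scaling. The part of these markers' cells in the members' values was not tested.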

How the data were processed

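Polyadenylated RNA of 4 libraries was sequenced, 2 for each condition. The authors deposited FPKM values per gene, per the file headers, rounded to 2 decimals, with a transcript length per gene. As 98.8% of the lengths are multiples of 3, they hold coding bases without UTRs. The submitters' processing notes name HISAT2 2.1.0, Bowtie2 2.2.5, RSEM 1.2.8 and genome build R64, without roles; read filters are not given in the sources used here.

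FPKM is a share of each library: when very abundant transcripts fall or rise, all others are moved the other way. The highest value of any gene was 15141 and 16223.5 FPKM in non-stress and 40702.9 and 41627.9 in stress libraries. How far this moved the members was not tested. Library sums were 988848 to 1064993. Depth, estimated from the steps between low values of short genes, was 18100000 to 18900000 fragments. In each library 97.8% to 98.7% of 46 to 77 low values lay within 0.1 of a whole number once depth and length offset had been chosen for the clearest steps. Members then hold an estimated 31 to 7884 fragments per library (median 567). Tests on counts were not run.

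The 5784 genes that reached an FPKM of 1 in 2 or more libraries (113 did not) were fitted with limma 3.58.1 in R 4.3.3 on log2(FPKM + 1), pseudocount 1, eBayes with a trend, 2 residual and 6.51 prior degrees of freedom, two-sided, Benjamini-Hochberg over all genes, threshold 0.05. Fold changes on this scale understate changes of low genes. The limma step was checked on simulated data with few changed genes and no shift between libraries. That setting differs from these data, so the check does not bear on the choice of scaling. Members and lists were chosen with earlier results of these data known, so no list was tested, and counts stand beside those of all genes. All members were named; values in every library were given for up to 3 members per role with the largest change, all members of roles of 4 or fewer and 7 fixed genes, with others added after values were seen. For each list up to 3 called genes with the largest change and a mean FPKM of at least 10 were named, with others added after values were seen. NDC10 is CBF2 in the table. All 50 members matched the RefSeq R64 annotation by gene identifier with identical coordinates (1-based), and sequences were read from that genome. Python 3.11.15, pandas 2.3.3, numpy 2.4.6, biopython 1.88 and matplotlib 3.10.9 were used. Alternatives were 3 other scalings, filters, a pseudocount of 0.1, a replicate block, leaving out each library, a threshold of 0.01 and leaving out genes with over 50% shared 50-base windows.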

Additional observations from a re-analysis of the deposited data

How the results depend on the processing

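Scaling moved the members' results most. The count of members higher was 23 after quantile normalization (14 as deposited), and the members' median log2 fold change was 0.094 after quantile normalization and -0.071 after median centring. Quantile normalization turned the sign of SPC34 (0.059), DSN1 (0.25), BIR1 (0.30), APC1 (0.24), APC4 (0.35), APC5 (0.30), CIN8 (0.13) and KIP1 (0.039), each called in at least 1 of both fits, and of DAD3 (0.20), called in neither; the cause was not tested. Leaving out 1 library at a time gave 10 to 14 members higher and 23 to 26 lower, with a median from -0.30 to -0.21. The smaller pseudocount changed no member's call.

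Among the lists, quantile normalization gave 16 spindle pole and microtubule genes higher and 11 lower, 0 further anaphase-promoting complex genes lower, 1 cohesin and condensin gene higher, 9 G2 and M phase genes higher, 2 G1 to S phase genes higher and 0 mating type markers lower. Median centring gave 1 anaphase-promoting complex gene lower, 1 cohesin and condensin gene higher and 1 G1 to S phase gene higher, and equal sums 1 meiosis marker higher. With no filter 3 mating type markers were lower. At a threshold of 0.01, 4 spindle pole and microtubule genes were higher, 2 anaphase-promoting complex genes lower and 1 meiosis marker higher. Leaving out 1 library gave 4 to 6 spindle pole and microtubule genes higher, 1 to 3 anaphase-promoting complex genes lower, 1 to 3 meiosis markers higher and 1 to 3 mating type markers lower.

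Replicate numbers share only a number: deviations of same-numbered libraries had a correlation of -0.005 over all genes. With the replicate block 13 members were higher and 27 lower, with MPS1 lost (adjusted p = 0.077) and TUB1 gained (adjusted p = 0.0337). SPC24 and IPL1 rest on an estimated 31 to 46 fragments in each stress library, and the largest standard errors of a log2 fold change among members were those of BUB1 (0.158), IPL1 (0.152) and KIP1 (0.147). A fit without 1 library leaves a lone library that is assumed to vary like the others.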
